A study of Homo sapiens with 12 samples.

Results

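The 32 genes described here make up the route from glucose to lactate and its main side branch: the carriers that let glucose in, the enzymes of glycolysis, lactate dehydrogenase, the carriers that let lactate out, the switch to the mitochondrion at pyruvate dehydrogenase, and the pentose phosphate pathway. They were chosen by symbol, and all 32 were found among the 59050 rows of a gene count table. Expression was compared between 2 states of HUES8, an established line of human embryonic stem cells. In the first state, ESC, the cells were kept in the stem cell medium mTeSR1 on Matrigel. In the second, NPC, neural progenitor cells had been made from them by 7 days of neural induction with 2.5 uM SB431542, an inhibitor of the activin and Nodal receptors, and 0.05 uM LDN193189, an inhibitor of BMP receptors and, over the last 2 days, without SB431542. Total RNA (with ribosomal RNA removed) and RNA bound to ribosomes were sequenced from both states, in 3 libraries for each of the 4 groups. Every library comes from this single line, and the labels give no genotype change. The way ribosomes were isolated is not stated in the sources used here.

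Glycolysis turns glucose into pyruvate in the cytosol and yields ATP without oxygen. Pyruvate is then either reduced to lactate by lactate dehydrogenase and exported by monocarboxylate carriers, or passed to the mitochondrial pyruvate dehydrogenase complex, which the pyruvate dehydrogenase kinases switch off. The pentose phosphate pathway leaves glycolysis after the first step and supplies NADPH and ribose for nucleotides. Pluripotent stem cells are known for a high rate of glycolysis with lactate export, and many steps have several isozymes encoded by separate genes.

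Total counts were 19529738 to 35117370 in the RNA libraries and 2422756 to 4451196 in the ribosome-bound libraries. Levels are given as CPM, the counts a gene would have in a library of equal size, scaled within an assay, and 0 counts in a library would allow up to 0.0854 to 0.154 CPM in RNA and 0.674 to 1.24 CPM in ribosome-bound RNA (3 counts, counting error only). A pair of libraries stood apart from their groups. RNA ESC library 3 correlated with the other ESC libraries across genes at Pearson r = 0.976 to 0.980, against 0.996 between those. In it 22 of the 32 genes were lower (median log2 difference -0.34, beside -0.01 for all genes tested). Ribosome-bound ESC library 2 correlated at 0.927 to 0.940, against 0.976, and 26 of the 32 were lower in it (median -0.44, beside 0.04 for all genes tested). The count of lower genes alone does not mark a library out. It was also 22 in RNA NPC library 3 (median -0.07) and 20 in ribosome-bound NPC library 1 (median -0.13). Counts of calls are given below with and without the pair of ESC libraries that stood apart, and so are the values of single genes that leaving one of that pair out moved most.

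The cell type markers followed the labels in part. All 9 pluripotency markers fell in both assays, with a summed level of 6365 to 7227 CPM in ESC RNA and 772 to 790.6 CPM in NPC RNA. Of 10 neural progenitor markers tested, 9 rose in RNA and 7 in ribosome-bound RNA. Neural crest markers were also higher in NPC RNA, summing to 77.6 to 86.4 CPM in ESC and to 301 to 306 CPM in NPC, with 6 of 8 rising. The others of that list fell. FOXD3 went from 15.6, 15.95 and 7.04 CPM in ESC to 5.33, 5.59 and 5.22 CPM in NPC. ETS1 went from 45.4, 43.9 and 64.1 CPM to 8.93, 9.44 and 10.5 CPM. Of 8 neuron markers tested in RNA, 3 rose and 4 fell, and their summed level was 87.6 to 117 CPM in ESC and 337 to 370.0 CPM in NPC. MAP2 alone held 305 to 335 CPM of that sum in NPC and 5.82 to 7.81 CPM of it in ESC. Of 7 astrocyte markers, 3 fell in RNA (613 to 829 CPM summed in ESC RNA, 654 to 732 CPM in NPC RNA). The 10 mesoderm and endoderm markers summed to 14.6 to 16.1 CPM in ESC RNA but to 729 to 976 CPM in ribosome-bound ESC RNA. CER1 and MIXL1 held most of that sum, at 449, 668 and 475 CPM and at 147, 224 and 146 CPM in the 3 ribosome-bound ESC libraries, against 1.38, 2.11 and 2.25 CPM and 7.20, 6.14 and 4.75 CPM in the RNA ESC libraries. In ribosome-bound NPC RNA the same list summed to 18.1 to 24.2 CPM. The part of these cell types in the results below was not tested.

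The genes together took a larger share of the RNA in NPC and a share of the ribosome-bound RNA that was lower on average. In RNA the 32 genes held 1.66%, 1.71% and 1.40% of all counts in the ESC libraries and 2.49%, 2.44% and 2.37% in the NPC libraries. The RNA groups did not overlap, with means of 1.59% ± 0.169 and 2.43% ± 0.0576 (SD, n = 3 each). In ribosome-bound RNA the shares were 1.82%, 1.30% and 1.80% in ESC and 1.29%, 1.46% and 1.44% in NPC. Here the groups overlapped, through ribosome-bound ESC library 2, and the means were 1.64% ± 0.293 and 1.40% ± 0.0932. Protein-coding genes held 86.1% to 89.7% of the counts in ribosome-bound ESC libraries and 81.1% to 83.9% in ribosome-bound NPC libraries. They held 95.0% to 95.4% in the RNA libraries. The part of this in the lower ribosome-bound share was not tested. In such bulk samples, fewer cells of a type and less RNA per cell cannot be told apart.

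**Figure D1:**
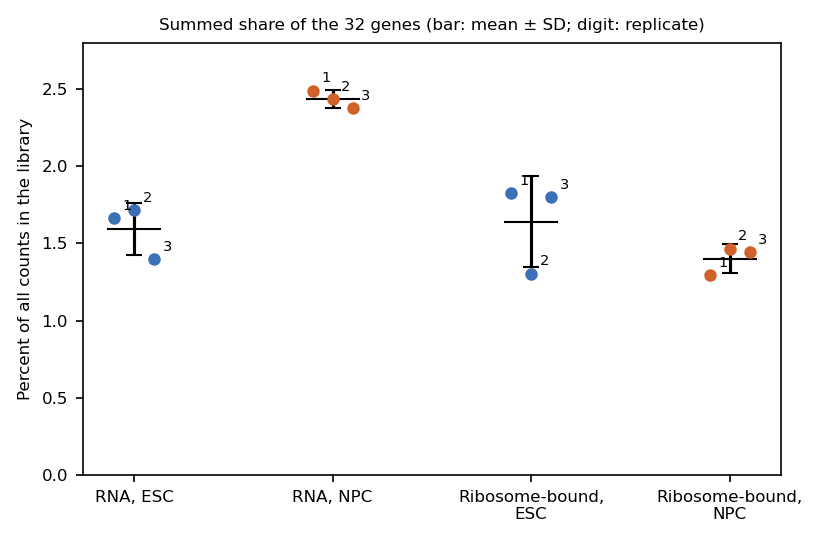
Summed share of all counts held by the 32 genes, in percent, for each library of the 4 groups; points are libraries with their replicate number, and lines are group means with SD (n = 3). The NPC libraries lie above every ESC library in RNA (2.37% to 2.49% against 1.40% to 1.71%) and overlap the ESC libraries in ribosome-bound RNA.

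Gene by gene, NPC and ESC were compared with edgeR's quasi-likelihood test and Benjamini-Hochberg adjustment over all genes tested, and a gene is said to rise or fall where the adjusted p was below 0.05. Changes are log2 of NPC over ESC with a standard error (±), and all 32 genes passed the filter on low counts in each fit. In RNA, 12 of the 32 rose and 8 fell, against 26.4% and 26.2% (52.6% in either direction) of all 18631 genes tested. The median change of the 32 genes was log2 0.29, and that of all genes was 0.03. In ribosome-bound RNA, 9 rose and 12 fell, against 31.6% and 30.3% (61.8% in either direction) of 12250 genes, with a median of -0.12 beside -0.01 for all genes. Translational efficiency, the ribosome-bound level relative to the RNA level, was taken as the interaction term of 1 fit over the 12 libraries. It rose for 4 genes and fell for 12, against 22.6% and 19.7% (42.3% in either direction) of 11866 genes, with a median of -0.59 beside -0.07 for all genes. Each library is scaled to its own total, so efficiency is a relative quantity. It also compares RNA and ribosome-bound ESC libraries that differed in their mesoderm and endoderm markers, as given above.

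Without RNA ESC library 3, 14 genes rose and 11 fell in RNA, against 34.9% and 34.7% of all genes. Without ribosome-bound ESC library 2, 9 rose and 16 fell in ribosome-bound RNA, against 34.8% and 33.3%. Efficiency then rose for 4 genes and fell for 19, against 24.1% and 19.9%. Ribosome-bound calls were fewer, 13 in place of 21, without ribosome-bound ESC library 3 (4 rises) and without ribosome-bound NPC library 2 (5 rises), and without ribosome-bound NPC library 3 they were 15 (5 rises). Of all genes, 28.5% rose and 27.0% fell without ribosome-bound ESC library 3. These shares were 28.0% and 25.6% without ribosome-bound NPC library 2, and 28.0% and 24.8% without ribosome-bound NPC library 3. Of the calls, 17 of 20 in RNA, 12 of 21 in ribosome-bound RNA and 11 of 16 in efficiency held under every alternative run, and no called change reversed. The labels do not say whether replicates were separate cultures, so the p-values measure the spread between these samples, which may be technical.

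**Figure D2:**
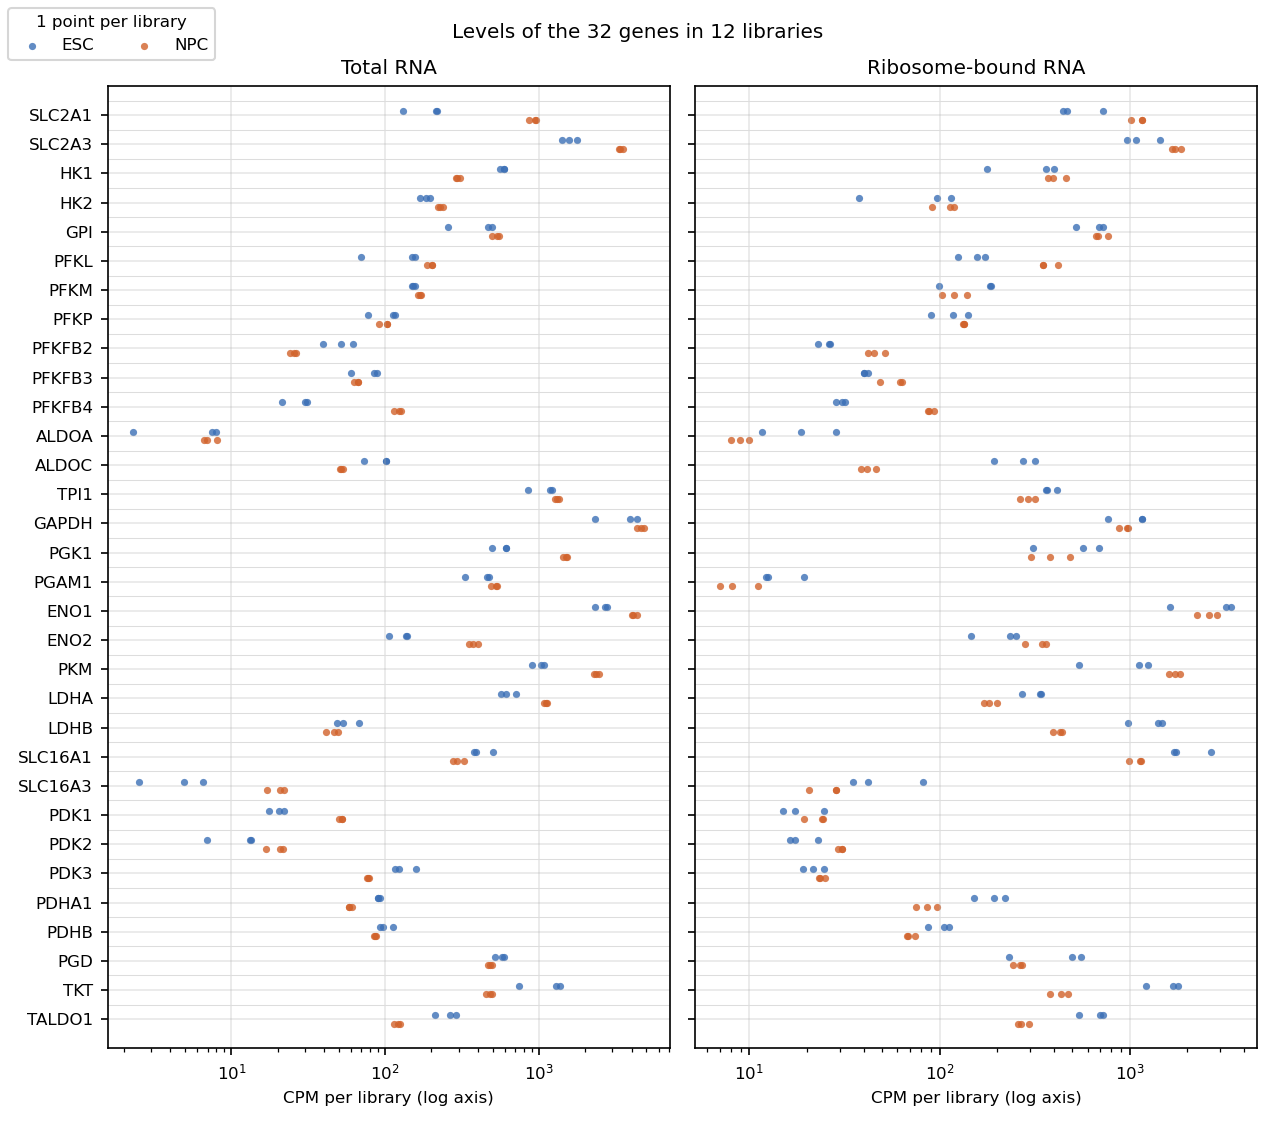
Level of each of the 32 genes in every library, in CPM on a log axis, with RNA on the left and ribosome-bound RNA on the right; each point is a library, ESC in blue and NPC in orange. LDHA and SLC16A3 lie higher in NPC RNA and lower in NPC ribosome-bound RNA, while PFKFB4 lies higher in NPC in both assays.

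Hypoxia-inducible factors (HIF) are known activators of glycolytic genes and bind the core letters ACGTG or GCGTG. Among the promoters of the 29 genes that RefSeq lists (GRCh38.p14, the 250 bases before the start site that opens the gene or, failing that, the first listed one, with none given for SLC2A3, PFKFB2 and SLC16A1), 16 held ACGTG or GCGTG on either strand, or 55.2%, against 43.2% of all 35116 promoters. ACGTG was in 11 of the 29 (37.9% against 18.5% of all), GCGTG in 11 (37.9% against 32.2%), and CACGTG, the E-box that MYC binds and that contains ACGTG on both strands, in 4 (13.8% against 6.30%). These shares are not like for like, since 1 promoter per gene was taken for the 29 and every listed promoter for the rest. The choice of start also matters: PDK1, PFKM and HK1 have 2, 7 and 7 listed promoters. Their windows used here held 35.6%, 35.2% and 46.8% G and C. Of the 11 genes with a promoter that rose in RNA, 6 held ACGTG or GCGTG, and of the 6 that fell, 3 did. The promoters below are examples: LDHA (5 ACGTG, 4 of them from 2 CACGTG), PGK1, ENO1 and PFKFB4, which rose in RNA, and TKT, which fell and held neither string in this window. They do not stand for the rises and falls. SLC2A1, PKM, SLC16A3, PDK1 and PDK2 rose in RNA and held neither string. ALDOC (3 ACGTG, 2 GCGTG), PDHA1 (3 GCGTG) and PDK3 (1 of each) fell in RNA and held matches. Each runs 5′ to 3′ on the gene's strand, with ACGTG or GCGTG of either strand in capitals. A match is a description of the letters and not a bound site.
LDHA, chr11:18394313-18394562, plus strand: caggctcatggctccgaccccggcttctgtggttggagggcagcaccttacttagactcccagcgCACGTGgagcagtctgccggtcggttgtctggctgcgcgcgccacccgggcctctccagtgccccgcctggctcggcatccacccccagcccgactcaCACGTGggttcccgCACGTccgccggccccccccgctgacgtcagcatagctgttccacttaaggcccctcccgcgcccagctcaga
PGK1, chrX:78103998-78104247, plus strand: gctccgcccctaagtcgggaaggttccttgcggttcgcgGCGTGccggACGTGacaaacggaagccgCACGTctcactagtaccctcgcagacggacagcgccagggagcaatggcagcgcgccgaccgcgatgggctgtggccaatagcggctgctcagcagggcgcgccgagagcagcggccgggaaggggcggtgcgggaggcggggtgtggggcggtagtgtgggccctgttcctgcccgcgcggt
ENO1, chr1:8878687-8878936, minus strand: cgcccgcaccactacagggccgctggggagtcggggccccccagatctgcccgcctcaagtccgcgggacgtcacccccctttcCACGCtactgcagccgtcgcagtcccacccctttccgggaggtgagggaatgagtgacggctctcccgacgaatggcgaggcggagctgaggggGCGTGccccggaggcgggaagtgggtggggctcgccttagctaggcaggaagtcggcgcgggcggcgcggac
PFKFB4, chr3:48556804-48557053, minus strand: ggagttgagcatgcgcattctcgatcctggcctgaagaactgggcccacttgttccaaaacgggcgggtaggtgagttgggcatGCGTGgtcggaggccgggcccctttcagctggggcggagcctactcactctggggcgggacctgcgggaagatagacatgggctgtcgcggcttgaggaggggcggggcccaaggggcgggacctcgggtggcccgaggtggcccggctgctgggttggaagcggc
TKT, chr3:53256023-53256272, minus strand: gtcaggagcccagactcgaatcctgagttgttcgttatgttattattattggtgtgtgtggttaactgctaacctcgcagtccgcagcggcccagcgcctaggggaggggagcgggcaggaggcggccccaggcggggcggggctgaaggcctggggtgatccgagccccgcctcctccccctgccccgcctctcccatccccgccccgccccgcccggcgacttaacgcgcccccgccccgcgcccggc

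Both glucose carriers rose in both assays, and SLC2A1 rose more in RNA than on ribosomes. SLC2A1 (GLUT1), the carrier for basal glucose uptake, had RNA levels of 215, 217 and 131 CPM in ESC and 963, 936 and 868 CPM in NPC, and every NPC library was above every ESC library (log2 2.30 ± 0.19, adjusted p = 3.83e-05). Ribosome-bound SLC2A1 was at 446, 723 and 469.7 CPM in ESC and 1163, 1021 and 1162 CPM in NPC, again without overlap (log2 1.03 ± 0.25, adjusted p = 0.00324). Its efficiency fell (log2 -1.33 ± 0.30, adjusted p = 0.00240), by less without both libraries that stand apart (log2 -0.88 ± 0.15, adjusted p = 3.72e-06). SLC2A3 (GLUT3), the high-affinity carrier known from neurons, had RNA at 1572, 1422 and 1762 CPM in ESC and 3325, 3517 and 3388 CPM in NPC (log2 1.10 ± 0.10, adjusted p = 5.04e-05). Its ribosome-bound RNA was at 964, 1444 and 1075 CPM in ESC and 1863, 1678 and 1721 CPM in NPC, with ESC library 2 the highest of its group and still below the NPC range (log2 0.60 ± 0.24, adjusted p = 0.0462). For SLC2A3, the ribosome-bound call ended without ribosome-bound ESC library 1 or 3 or ribosome-bound NPC library 1, 2 or 3, with DESeq2's size factors and with no filter on low counts (log2 0.48 to 0.64, adjusted p 0.0599 to 0.162). For SLC2A3, the efficiency value (log2 -0.57 ± 0.26, adjusted p = 0.0938 over all libraries) passed without RNA ESC library 3 (log2 -0.67, adjusted p 0.0484). With all libraries kept, it passed with DESeq2 (log2 -0.63, adjusted p = 0.0262). Without ribosome-bound ESC library 2 that value was smaller (log2 -0.37 ± 0.18, adjusted p = 0.120).

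The hexokinases, which trap glucose as its phosphate, moved in opposite directions in RNA. HK1, the form found in most tissues and abundant in brain, fell from 593, 557 and 589.9 CPM in ESC to 307, 294 and 288 CPM in NPC, with no overlap (log2 -0.97 ± 0.082, adjusted p = 4.03e-05). On ribosomes HK1 was at 400.1, 178 and 361 CPM in ESC and 461, 372 and 394 CPM in NPC, where ESC library 2 was lowest and the groups overlapped (log2 0.38 ± 0.28, adjusted p = 0.255), and its efficiency rose (log2 1.28 ± 0.33, adjusted p = 0.00596). The ribosome-bound change of HK1 was log2 0.088 ± 0.14, adjusted p = 0.594 without ESC library 2. HK2, the form bound to mitochondria in proliferating and tumour cells, was at 186, 168 and 196 CPM in ESC and 221, 228 and 236 CPM in NPC in RNA, a small rise without overlap (log2 0.32 ± 0.094, adjusted p = 0.0214). Ribosome-bound HK2 was at 115, 37.9 and 97.0 CPM in ESC and 91.7, 119 and 113 CPM in NPC, and the groups overlapped (log2 0.37 ± 0.32, adjusted p = 0.338). The ribosome-bound change of HK2 was log2 0.021 ± 0.15, adjusted p = 0.907 without ESC library 2. GPI, which converts glucose phosphate to fructose phosphate, passed no test, with RNA means of 405 ± 129 CPM in ESC and 525 ± 28.5 CPM in NPC (SD, n = 3 each, as for all means below; log2 0.37 ± 0.22, adjusted p = 0.192) and ribosome-bound means of 646 ± 109 CPM in ESC and 704 ± 52.8 CPM in NPC (log2 0.12 ± 0.22, adjusted p = 0.639). Without ESC library 2 the ribosome-bound change of GPI turned in sign (log2 -0.023 ± 0.15, adjusted p = 0.900). Without RNA ESC library 3 the RNA change of GPI was log2 0.13 ± 0.064, adjusted p = 0.0670. For HK2, the RNA call ended without RNA ESC library 1 or 2 or RNA NPC library 1, 2 or 3 and with DESeq2 (log2 0.23 to 0.35, adjusted p 0.0513 to 0.106).

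Among the 3 phosphofructokinase subunits, which carry out the committed step, the liver form PFKL rose on ribosomes and the others passed no test over all libraries. Ribosome-bound PFKL had means of 152 ± 24.5 CPM in ESC and 374 ± 39.4 CPM in NPC (log2 1.30 ± 0.21, adjusted p = 2.25e-04). In RNA, PFKL means were 126 ± 48.4 CPM in ESC and 197 ± 7.52 CPM in NPC (log2 0.64 ± 0.27, adjusted p = 0.0757), and the call was reached with the replicate number as a block (log2 0.73, adjusted p = 0.0162). RNA ESC library 3 was the low one, at 70.0 CPM beside 149.6 and 157 CPM. The muscle form PFKM had ribosome-bound means of 156 ± 49.6 CPM in ESC and 120.4 ± 17.7 CPM in NPC (log2 -0.38 ± 0.25, adjusted p = 0.209). The platelet form PFKP had ribosome-bound means of 116 ± 25.02 CPM in ESC and 134 ± 0.880 CPM in NPC (log2 0.20 ± 0.20, adjusted p = 0.406). The ribosome-bound change of PFKP was log2 0.04 ± 0.14, adjusted p = 0.807 without ESC library 2. For PFKL, the RNA value (log2 0.64 ± 0.27, adjusted p = 0.0757 over all libraries) passed without RNA ESC library 2 or 3 (log2 0.36 to 0.82, adjusted p 2.74e-06 to 0.0399). With all libraries kept, it passed with DESeq2 (log2 0.62, adjusted p = 0.0432) and with no filter on low counts (log2 0.65, adjusted p = 0.00470). For PFKL, the efficiency value (log2 0.57 ± 0.33, adjusted p = 0.171 over all libraries) passed without RNA ESC library 3 (log2 0.86, adjusted p 0.00399). For PFKM, the ribosome-bound value (log2 -0.38 ± 0.25, adjusted p = 0.209 over all libraries) passed without ribosome-bound ESC library 2 (log2 -0.63, adjusted p 1.49e-04). For PFKM, the efficiency value (log2 -0.59 ± 0.29, adjusted p = 0.115 over all libraries) passed without ribosome-bound ESC library 2 (log2 -0.81, adjusted p 0.00208). For PFKP, the RNA value (log2 -0.026 ± 0.16, adjusted p = 0.904 over all libraries) passed without RNA ESC library 3 (log2 -0.19, adjusted p 0.0107).

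The PFKFB enzymes make and remove the small molecule that activates phosphofructokinase, and all 3 rose on ribosomes while their RNA went different ways. PFKFB4 RNA was at 31.1, 30.3 and 21.5 CPM in ESC and 126, 123 and 114 CPM in NPC and its ribosome-bound RNA at 30.6, 31.9 and 28.4 CPM in ESC and 93.3, 87.8 and 86.7 CPM in NPC. Neither assay showed overlap, and PFKFB4 rose in both (RNA log2 2.13 ± 0.16, adjusted p = 1.92e-05; ribosome-bound log2 1.56 ± 0.18, adjusted p = 2.34e-05), with a fall in efficiency (log2 -0.64 ± 0.22, adjusted p = 0.0311). PFKFB2, the form first known from heart, was at 51.6, 39.2 and 61.7 CPM in ESC and 25.7, 24.0 and 26.2 CPM in NPC in RNA and fell (log2 -1.01 ± 0.17, adjusted p = 0.00162). On ribosomes PFKFB2 was at 26.5, 22.8 and 26.3 CPM in ESC and 51.9, 45.5 and 42.1 CPM in NPC and rose (log2 0.88 ± 0.20, adjusted p = 0.00225), so that NPC lay below every ESC library in one assay and above every one in the other. The efficiency of PFKFB2 rose (log2 1.82 ± 0.27, adjusted p = 9.72e-05), the largest rise among the 32 genes. PFKFB3, a form with strong kinase activity, was at 88.2, 84.9 and 60.1 CPM in ESC and 66.7, 66.5 and 62.5 CPM in NPC in RNA, where the groups overlapped through ESC library 3 (log2 -0.25 ± 0.15, adjusted p = 0.200). Its ribosome-bound RNA was at 40.3, 40.1 and 42.1 CPM in ESC and 48.7, 63.3 and 61.8 CPM in NPC, without overlap (log2 0.51 ± 0.19, adjusted p = 0.0360), and its efficiency rose (log2 0.69 ± 0.24, adjusted p = 0.0294).

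For PFKFB4, the efficiency call ended without RNA NPC library 1, 2 or 3, ribosome-bound ESC library 1 or ribosome-bound NPC library 1, 2 or 3 and with no filter on low counts (log2 -0.68 to -0.59, adjusted p 0.0508 to 0.120). For PFKFB3, the RNA value (log2 -0.25 ± 0.15, adjusted p = 0.200 over all libraries) passed without RNA ESC library 3 (log2 -0.41, adjusted p 4.68e-07). For PFKFB3, the ribosome-bound call ended without ribosome-bound ESC library 1 or 3 or ribosome-bound NPC library 2 or 3, with DESeq2 and with no filter on low counts (log2 0.46 to 0.52, adjusted p 0.0576 to 0.119). For PFKFB3, the efficiency call ended without RNA ESC library 1 or 2, RNA NPC library 1, 2 or 3 or ribosome-bound NPC library 2 or 3 (log2 0.60 to 0.72, adjusted p 0.0531 to 0.0810). The counted region of PFKFB2 overlaps that of YOD1, and PFKFB3 has antisense RNAs, so without a stated strand setting the counts of these genes are uncertain. PFKFB4 likewise overlaps UCN2.

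**Figure D3:**
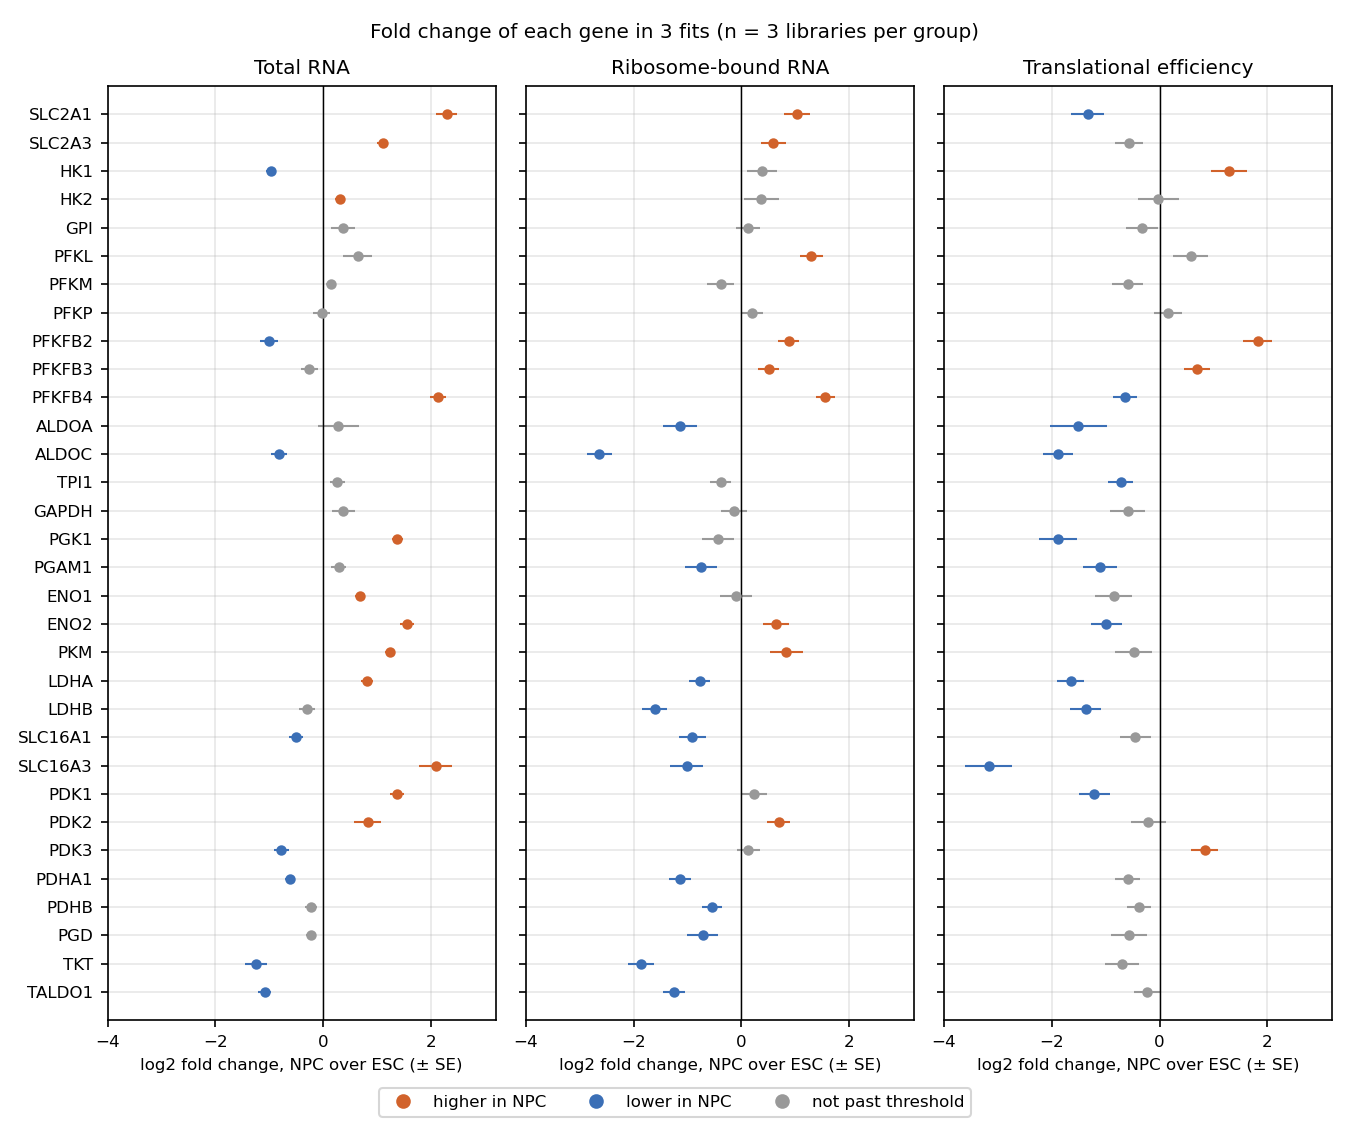
Change of NPC over ESC for the 32 genes in RNA, in ribosome-bound RNA and in translational efficiency, as log2 with standard errors, ordered by step of the pathway; orange points rose, blue points fell and grey points did not pass the test. LDHA and SLC16A3 rose in RNA and fell on ribosomes, and TKT and TALDO1 lie below 0 in both.

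Both aldolases, which split the sugar chain, fell on ribosomes. ALDOC, the brain aldolase, was at 102, 101 and 72.3 CPM in ESC and 53.4, 52.0 and 50.5 CPM in NPC in RNA and fell (log2 -0.82 ± 0.15, adjusted p = 0.00208). On ribosomes it went from 276, 194 and 316 CPM in ESC to 38.5, 46.6 and 41.6 CPM in NPC, the largest ribosome-bound fall of the 32 genes (log2 -2.63 ± 0.23, adjusted p = 3.00e-06), and its efficiency fell (log2 -1.89 ± 0.27, adjusted p = 7.35e-05). No ALDOC value of one state reached the range of the other in either assay. ALDOA, the muscle and general form, was counted at only 7.51, 7.94 and 2.30 CPM in ESC and 8.11, 6.96 and 6.68 CPM in NPC in RNA, where ESC library 3 was lowest and the groups overlapped (log2 0.28 ± 0.39, adjusted p = 0.563; log2 -0.10 ± 0.14, adjusted p = 0.534 without RNA ESC library 3). The sign of the ALDOA change in RNA thus turned without that library. Ribosome-bound ALDOA was at 28.4, 11.6 and 18.8 CPM in ESC and 8.01, 8.92 and 9.96 CPM in NPC, with every NPC library lower (log2 -1.13 ± 0.32, adjusted p = 0.00872), and its efficiency fell (log2 -1.505 ± 0.53, adjusted p = 0.0305). The ALDOA row lies within another RefSeq gene, LOC112694756, and holds 1370 counts over the 12 libraries, so its level is uncertain. For ALDOA, the efficiency call ended without RNA NPC library 1, ribosome-bound ESC library 1 or ribosome-bound NPC library 1, 2 or 3 (log2 -1.57 to -1.13, adjusted p 0.0530 to 0.0994).

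The middle steps, from triose phosphates to phosphoglycerate, had RNA that was higher or not called and ribosome-bound RNA that was lower or not called. PGK1, which makes the first ATP of the pathway, rose in RNA, at 608, 611 and 495 CPM in ESC and 1531, 1497 and 1435 CPM in NPC (log2 1.38 ± 0.10, adjusted p = 2.32e-05). Ribosome-bound PGK1 was at 692, 309 and 570.2 CPM in ESC and 302, 483 and 383 CPM in NPC, and the groups overlapped through ESC library 2 (log2 -0.43 ± 0.30, adjusted p = 0.228). Its efficiency fell (log2 -1.88 ± 0.36, adjusted p = 6.59e-04). GAPDH, the oxidizing step and a common reference gene, was at 3914, 4361 and 2329.8 CPM in ESC and 4830.3, 4606 and 4348 CPM in NPC in RNA, with ESC library 3 far below the rest and ESC library 2 within the NPC range (log2 0.38 ± 0.21, adjusted p = 0.159). With the replicate number as a block, GAPDH reached the call in RNA (log2 0.43, adjusted p = 0.0418). On ribosomes GAPDH was at 1166, 774 and 1167 CPM in ESC and 881, 984 and 964 CPM in NPC, with overlap (log2 -0.14 ± 0.23, adjusted p = 0.635), and its efficiency was not called (log2 -0.59 ± 0.32, adjusted p = 0.150; log2 -0.36 ± 0.27, adjusted p = 0.276 without RNA ESC library 3). The ribosome-bound change of GAPDH was log2 -0.32 ± 0.15, adjusted p = 0.0572 without ESC library 2. For GAPDH, the RNA value (log2 0.38 ± 0.21, adjusted p = 0.159 over all libraries) passed without RNA ESC library 2 or 3 (log2 0.15 to 0.53, adjusted p 0.0356 to 0.0467). With all libraries kept, it passed with no filter on low counts (log2 0.38, adjusted p = 0.0323). For GAPDH, the efficiency value (log2 -0.59 ± 0.32, adjusted p = 0.150 over all libraries) passed without ribosome-bound ESC library 2 (log2 -0.74, adjusted p 0.0254). For PGK1, the ribosome-bound value (log2 -0.43 ± 0.30, adjusted p = 0.228 over all libraries) passed without ribosome-bound ESC library 2 (log2 -0.71, adjusted p 1.51e-04).

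PGAM1, which moves the phosphate of phosphoglycerate, was at 459, 477 and 328 CPM in ESC and 522, 535 and 486 CPM in NPC in RNA (log2 0.29 ± 0.14, adjusted p = 0.128, and log2 0.31, adjusted p = 0.0487 with the replicate number as a block). Without RNA ESC library 3 the PGAM1 change in RNA was smaller (log2 0.14 ± 0.064, adjusted p = 0.0502). Its ribosome-bound RNA was at 12.2, 12.5 and 19.3 CPM in ESC and 7.05, 8.09 and 11.1 CPM in NPC, lower in every NPC library (log2 -0.74 ± 0.30, adjusted p = 0.0462), and its efficiency fell (log2 -1.11 ± 0.32, adjusted p = 0.0119). Without ribosome-bound ESC library 3, the highest, the ribosome-bound change was -0.49. TPI1, the triose phosphate isomerase, had RNA means of 1088 ± 203 CPM in ESC and 1308 ± 36.7 CPM in NPC (log2 0.27 ± 0.14, adjusted p = 0.139) and ribosome-bound means of 381 ± 28.7 CPM in ESC and 292 ± 25.3 CPM in NPC (log2 -0.39 ± 0.19, adjusted p = 0.103), and its efficiency fell (log2 -0.73 ± 0.24, adjusted p = 0.0239). Without RNA ESC library 3 the RNA change of TPI1 was log2 0.12 ± 0.063, adjusted p = 0.0865. Counts of this group may be split with copies: 62 rows of the table are named as GAPDH pseudogenes (739 counts beside 692131 for GAPDH) and 13 as PGAM1 pseudogenes (508 counts). The ribosome-bound to RNA ratio of PGAM1 was low in both states, with mean log2 values of -4.81 and -5.82. For PGAM1, the ribosome-bound call ended without ribosome-bound ESC library 3 or ribosome-bound NPC library 1 or 2, with DESeq2 and with scaling to protein-coding genes (log2 -0.77 to -0.49, adjusted p 0.0530 to 0.222). For PGAM1, the efficiency call ended without ribosome-bound ESC library 3 (log2 -0.83, adjusted p 0.0542). For TPI1, the ribosome-bound value (log2 -0.39 ± 0.19, adjusted p = 0.103 over all libraries) passed without ribosome-bound ESC library 2 (log2 -0.44, adjusted p 0.00514). With all libraries kept, it passed with DESeq2 (log2 -0.42, adjusted p = 0.0365). For TPI1, the efficiency call ended without RNA NPC library 1 or 2, ribosome-bound ESC library 3 or ribosome-bound NPC library 3 and with no filter on low counts (log2 -0.73 to -0.64, adjusted p 0.0553 to 0.0715).

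The enolases and pyruvate kinase rose in RNA, and ENO2 and PKM also rose on ribosomes. ENO2, the enolase of neurons, had RNA at 137, 139.5 and 106 CPM in ESC and 404, 375 and 351 CPM in NPC (log2 1.56 ± 0.13, adjusted p = 3.67e-05). Its ribosome-bound RNA was at 253, 146 and 234 CPM in ESC and 283, 347 and 364 CPM in NPC, where ESC library 2 was lowest and NPC was above every ESC library (log2 0.65 ± 0.24, adjusted p = 0.0333; log2 0.43 ± 0.14, adjusted p = 0.00825 without that library). The efficiency of ENO2 fell (log2 -0.99 ± 0.29, adjusted p = 0.0119). ENO1, the general enolase, rose in RNA with means of 2590.1 ± 231 CPM in ESC and 4158 ± 167 CPM in NPC (log2 0.68 ± 0.091, adjusted p = 4.66e-04), and had ribosome-bound means of 2759.6 ± 979.7 CPM in ESC and 2581 ± 311 CPM in NPC (log2 -0.10 ± 0.30, adjusted p = 0.796). PKM, the pyruvate kinase gene whose splice forms cannot be told apart in gene counts, had RNA at 1034, 1072 and 895 CPM in ESC and 2453, 2357 and 2284 CPM in NPC (log2 1.24 ± 0.095, adjusted p = 2.35e-05). On ribosomes PKM was at 1240.5, 538 and 1118 CPM in ESC and 1603, 1725 and 1843 CPM in NPC, with ESC library 2 below the others and no overlap with NPC (log2 0.84 ± 0.30, adjusted p = 0.0300; log2 0.53 ± 0.16, adjusted p = 0.00383 without that library). For ENO2, the ribosome-bound call ended without ribosome-bound ESC library 3 or ribosome-bound NPC library 2 or 3 (log2 0.59 to 0.72, adjusted p 0.0608 to 0.121). For ENO1, the ribosome-bound value (log2 -0.10 ± 0.30, adjusted p = 0.796 over all libraries) passed without ribosome-bound ESC library 2 (log2 -0.38, adjusted p 0.0487). For ENO1, the efficiency value (log2 -0.85 ± 0.34, adjusted p = 0.0546 over all libraries) passed without ribosome-bound ESC library 2 (log2 -1.10, adjusted p 2.15e-04). With all libraries kept, it passed with DESeq2 (log2 -0.89, adjusted p = 0.0134) and with its size factors (log2 -0.89, adjusted p = 0.0384). For PKM, the ribosome-bound call ended without ribosome-bound ESC library 3 or ribosome-bound NPC library 1, 2 or 3 (log2 0.80 to 0.94, adjusted p 0.0524 to 0.0904). For PKM, the efficiency value (log2 -0.48 ± 0.35, adjusted p = 0.274 over all libraries) passed without ribosome-bound ESC library 2 (log2 -0.74, adjusted p 0.00222).

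For lactate dehydrogenase, LDHA rose in RNA and fell on ribosomes, and LDHB fell on ribosomes. LDHA, the subunit that favours lactate, had RNA at 608, 566 and 714 CPM in ESC and 1082, 1111 and 1125 CPM in NPC (log2 0.81 ± 0.10, adjusted p = 3.60e-04). On ribosomes LDHA was at 337, 271 and 340.0 CPM in ESC and 172, 200.2 and 182 CPM in NPC (log2 -0.77 ± 0.20, adjusted p = 0.00476). Thus every NPC library lay above every ESC library in RNA and below every one on ribosomes, and LDHA's efficiency fell (log2 -1.65 ± 0.24, adjusted p = 8.50e-05). LDHB, the subunit that favours pyruvate, was at 52.9, 48.4 and 68.0 CPM in ESC and 41.1, 46.6 and 49.5 CPM in NPC in RNA, where the groups overlapped (log2 -0.30 ± 0.15, adjusted p = 0.133). Without RNA ESC library 3 the RNA change of LDHB was log2 -0.14 ± 0.078, adjusted p = 0.102. Ribosome-bound LDHB went from 1402, 974 and 1476 CPM in ESC to 394, 438 and 429.6 CPM in NPC (log2 -1.61 ± 0.24, adjusted p = 1.16e-04). Every NPC value was below every ESC value there, and its efficiency fell (log2 -1.37 ± 0.28, adjusted p = 0.00133). The ribosome-bound to RNA ratio of LDHB was high in both states, at mean log2 values of 4.49 and 3.19, and LDHA and LDHB have 6 and 3 pseudogene rows (255 and 43 counts).

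Of the lactate carriers, SLC16A3 rose in RNA and fell on ribosomes, and SLC16A1 fell in both. SLC16A3 (MCT4), the carrier of cells that export much lactate, had few RNA counts in ESC, at 4.90, 6.4997 and 2.50 CPM in ESC and 20.8, 21.9 and 17.04 CPM in NPC, and rose 4.26-fold (log2 2.09 ± 0.31, adjusted p = 7.47e-04). Ribosome-bound SLC16A3 was at 34.95, 81.8 and 42.1 CPM in ESC and 28.5, 20.6 and 28.5 CPM in NPC, with ESC library 2 far above the others and every NPC library lower (log2 -1.02 ± 0.31, adjusted p = 0.0124; log2 -0.59 ± 0.20, adjusted p = 0.00875 without that library). Its efficiency had the largest fall of the 32 genes (log2 -3.17 ± 0.44, adjusted p = 5.71e-05). SLC16A1 (MCT1), the widely expressed carrier, had RNA at 390.4, 381 and 499.7 CPM in ESC and 274, 291 and 326 CPM in NPC (log2 -0.51 ± 0.13, adjusted p = 0.0113). On ribosomes SLC16A1 was at 1701, 2682 and 1754 CPM in ESC and 1144, 990.2 and 1138 CPM in NPC, again highest in ESC library 2 and without overlap (log2 -0.91 ± 0.25, adjusted p = 0.00842). SLC16A3 overlaps CSNK1D and SLC16A1 overlaps a long noncoding RNA, which leaves their counts uncertain without a stated strand setting. For SLC16A3, the ribosome-bound call ended without ribosome-bound NPC library 2 (log2 -0.86, adjusted p 0.0654). For SLC16A1, the RNA call ended without RNA NPC library 1 or 2 (log2 -0.49 to -0.45, adjusted p 0.0520 to 0.0564).

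LDHA and SLC16A3 were the genes that rose in RNA and fell on ribosomes, 2 of 32 (6.25%), against 1.05% of the 11866 genes tested in both assays. PFKFB2 alone fell in RNA and rose on ribosomes, against 3.29% of all genes. SLC2A1, SLC2A3, PFKFB4, ENO2, PKM and PDK2 rose in both assays, 6 of 32 (18.8%) against 15.2% of all genes. These 6 were 50.0% of the members' RNA rises and 66.7% of their ribosome-bound rises, where the same shares over all genes were 62.4% and 48.0%. ALDOC, SLC16A1, PDHA1, TKT and TALDO1 fell in both, 5 of 32 (15.6%) against 16.6% of all genes. They were 62.5% of the RNA falls and 41.7% of the ribosome-bound falls, beside 58.8% and 54.4% over all genes. The RNA and ribosome-bound fits share no library.

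Of the kinases that switch off pyruvate dehydrogenase, PDK1 and PDK2 rose in RNA and PDK3 fell. PDK1, a known HIF target, had RNA at 20.5, 17.6 and 22.1 CPM in ESC and 52.3, 50.4 and 52.7 CPM in NPC, without overlap (log2 1.37 ± 0.12, adjusted p = 6.10e-05). On ribosomes PDK1 was at 17.5, 15.1 and 24.7 CPM in ESC and 24.0, 24.5 and 19.5 CPM in NPC, with overlapping groups (log2 0.23 ± 0.24, adjusted p = 0.433), and its efficiency fell (log2 -1.21 ± 0.28, adjusted p = 0.00318). The ribosome-bound change of PDK1 was log2 0.076 ± 0.23, adjusted p = 0.780 without ESC library 2. PDK2, the widely expressed kinase, rose in both assays, with RNA at 13.1, 13.3 and 6.89 CPM in ESC and 21.8, 20.8 and 16.9 CPM in NPC (log2 0.83 ± 0.25, adjusted p = 0.0240). Ribosome-bound PDK2 was at 17.5, 22.8 and 16.3 CPM in ESC and 29.2, 30.7 and 30.8 CPM in NPC, each NPC library above ESC (log2 0.69 ± 0.22, adjusted p = 0.0149). PDK3 fell in RNA, at 122, 117 and 158 CPM in ESC and 76.8, 76.7 and 78.7 CPM in NPC (log2 -0.77 ± 0.13, adjusted p = 0.00160). Its ribosome-bound RNA was at 19.0, 21.5 and 24.7 CPM in ESC and 25.001, 23.1 and 23.5 CPM in NPC with overlap (log2 0.13 ± 0.21, adjusted p = 0.603), and its efficiency rose (log2 0.84 ± 0.25, adjusted p = 0.0137). PDK1 and PDK2 have antisense RNAs and PDK2 overlaps SAMD14. For PDK2, the RNA call ended without RNA NPC library 1 or 2 (log2 0.76 to 0.80, adjusted p 0.0733 to 0.0808). For PDK2, the ribosome-bound call ended without ribosome-bound ESC library 3 (log2 0.58, adjusted p 0.0723).

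Their target, the E1 enzyme that brings pyruvate into the mitochondrial cycle, fell on ribosomes in both subunits. PDHA1, the catalytic alpha subunit, had RNA at 89.6, 92.0 and 90.3 CPM in ESC and 58.4, 58.3 and 61.1 CPM in NPC (log2 -0.61 ± 0.092, adjusted p = 8.40e-04). Ribosome-bound PDHA1 was at 221, 152 and 194 CPM in ESC and 75.6, 96.5 and 85.8 CPM in NPC (log2 -1.14 ± 0.21, adjusted p = 5.53e-04), and the states overlapped in neither assay. PDHB, the beta subunit, had ribosome-bound means of 102 ± 13.05 CPM in ESC and 69.9 ± 3.75 CPM in NPC (log2 -0.55 ± 0.19, adjusted p = 0.0228) and RNA means of 100.4 ± 10.5 CPM in ESC and 85.8 ± 1.499 CPM in NPC (log2 -0.23 ± 0.11, adjusted p = 0.107). Without RNA ESC library 3 the RNA change of PDHB was log2 -0.14 ± 0.067, adjusted p = 0.0573. For PDHA1, the efficiency value (log2 -0.59 ± 0.23, adjusted p = 0.0508 over all libraries) passed without RNA ESC library 3, ribosome-bound ESC library 2 or ribosome-bound NPC library 2 (log2 -0.70 to -0.60, adjusted p 0.00553 to 0.0477). With all libraries kept, it passed with DESeq2 (log2 -0.64, adjusted p = 0.00309) and with its size factors (log2 -0.64, adjusted p = 0.0273). For PDHB, the ribosome-bound call ended without ribosome-bound ESC library 1 or 3 or ribosome-bound NPC library 1, 2 or 3 and with no filter on low counts (log2 -0.58 to -0.47, adjusted p 0.0549 to 0.112). For PDHB, the efficiency value (log2 -0.39 ± 0.22, adjusted p = 0.175 over all libraries) passed without RNA ESC library 3 (log2 -0.49, adjusted p 0.0372). With all libraries kept, it passed with DESeq2 (log2 -0.44, adjusted p = 0.0436).

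Of the pentose phosphate enzymes, TKT and TALDO1 fell in both assays and PGD on ribosomes. TKT, the transketolase of the non-oxidative arm, had RNA at 1282, 1364 and 739 CPM in ESC and 496, 481 and 453 CPM in NPC, with ESC library 3 below its group and still above NPC (log2 -1.24 ± 0.21, adjusted p = 0.00159). On ribosomes TKT went from 1681, 1219.7 and 1801 CPM in ESC to 382, 437 and 476 CPM in NPC (log2 -1.86 ± 0.24, adjusted p = 4.73e-05). TALDO1, the transaldolase of the same arm, had RNA at 263, 288 and 212 CPM in ESC and 120.4, 125 and 114 CPM in NPC (log2 -1.09 ± 0.13, adjusted p = 2.23e-04). Ribosome-bound TALDO1 was at 695, 539 and 722 CPM in ESC and 296, 269 and 258 CPM in NPC (log2 -1.25 ± 0.21, adjusted p = 3.28e-04). Neither gene overlapped between states in either assay, and efficiency was not called for TKT (log2 -0.69 ± 0.31, adjusted p = 0.0829) or TALDO1 (log2 -0.24 ± 0.24, adjusted p = 0.441; log2 -0.13 ± 0.21, adjusted p = 0.631 without RNA ESC library 3). PGD, which yields NADPH in the oxidative arm, fell on ribosomes with means of 428 ± 171 CPM in ESC and 260.0 ± 14.2 CPM in NPC (log2 -0.72 ± 0.29, adjusted p = 0.0470). Its ribosome-bound groups overlapped through ESC library 2, the lowest, and its RNA means were 561 ± 38.0 CPM in ESC and 479.6 ± 14.3 CPM in NPC (log2 -0.23 ± 0.088, adjusted p = 0.0604). For TKT, the efficiency value (log2 -0.69 ± 0.31, adjusted p = 0.0829 over all libraries) passed without ribosome-bound ESC library 2 (log2 -0.82, adjusted p 0.0163). With all libraries kept, it passed with DESeq2 (log2 -0.74, adjusted p = 0.0367). For PGD, the RNA value (log2 -0.23 ± 0.088, adjusted p = 0.0604 over all libraries) passed without RNA ESC library 3 (log2 -0.28, adjusted p 7.48e-05). With all libraries kept, it passed with DESeq2 (log2 -0.25, adjusted p = 0.0456) and with its size factors (log2 -0.25, adjusted p = 0.0339). For PGD, the ribosome-bound call ended without ribosome-bound ESC library 1 or 3 or ribosome-bound NPC library 1, 2 or 3 and with scaling to protein-coding genes (log2 -0.73 to -0.50, adjusted p 0.0541 to 0.160). For PGD, the efficiency value (log2 -0.57 ± 0.34, adjusted p = 0.186 over all libraries) passed without ribosome-bound ESC library 2 (log2 -0.84, adjusted p 5.76e-04).

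The balance between isozymes of a step was followed as the log2 ratio of their counts within a library, which does not depend on library scaling. Gene lengths are not part of these ratios, so only their change between states is read. LDHB over LDHA in RNA was -3.52, -3.55 and -3.39 in ESC and -4.72, -4.57 and -4.50 in NPC, and on ribosomes 2.05, 1.84 and 2.12 in ESC and 1.195, 1.13 and 1.24 in NPC. The NPC mean minus the ESC mean was -1.11 and -0.82, with no overlap in either assay, so LDHB counts were lower beside LDHA counts in NPC. SLC16A3 over SLC16A1 in RNA was -6.31, -5.87 and -7.63 in ESC and -3.72, -3.73 and -4.26 in NPC, a difference of 2.698 without overlap. On ribosomes it was -5.60, -5.03 and -5.38 in ESC and -5.32, -5.58 and -5.31 in NPC, where the groups overlapped (-0.066, exact p = 0.9). HK2 over HK1 likewise differed by 1.29 in RNA without overlap, and on ribosomes the groups overlapped (0.051, exact p = 0.9).

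PFKFB4 over PFKFB2 had the largest difference in RNA, 3.13, beside 0.68 on ribosomes. PFKFB3 over PFKFB2 was higher in NPC RNA (0.75) and lower in NPC on ribosomes (-0.38). In RNA and on ribosomes, NPC ratios were lower for PFKM over PFKL (-0.59 and -1.64) and PFKP over PFKL (-0.74 and -1.08). They were lower for ALDOC over ALDOA (-1.29 and -1.57), and higher for ENO2 over ENO1 (0.89 and 0.71) and SLC2A1 over SLC2A3 (1.22 and 0.45). PDK3 over PDK2 differed by -1.65 in RNA and -0.55 on ribosomes. PDK1 over PDK2 had overlapping groups in RNA (0.49, exact p = 0.4) and on ribosomes (-0.42, exact p = 0.3). The 20 ratios without overlap all have p = 0.1 by the exact 2-sided permutation test, the smallest that 3 against 3 libraries allow, and 0.12 after Benjamini-Hochberg adjustment over 24 tests, so none passes a threshold of 0.05. How many of all gene pairs, or of all genes, lack overlap between the states is not given here. The lack of overlap therefore describes these libraries and does not set these genes apart from others.

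**Figure D4:**
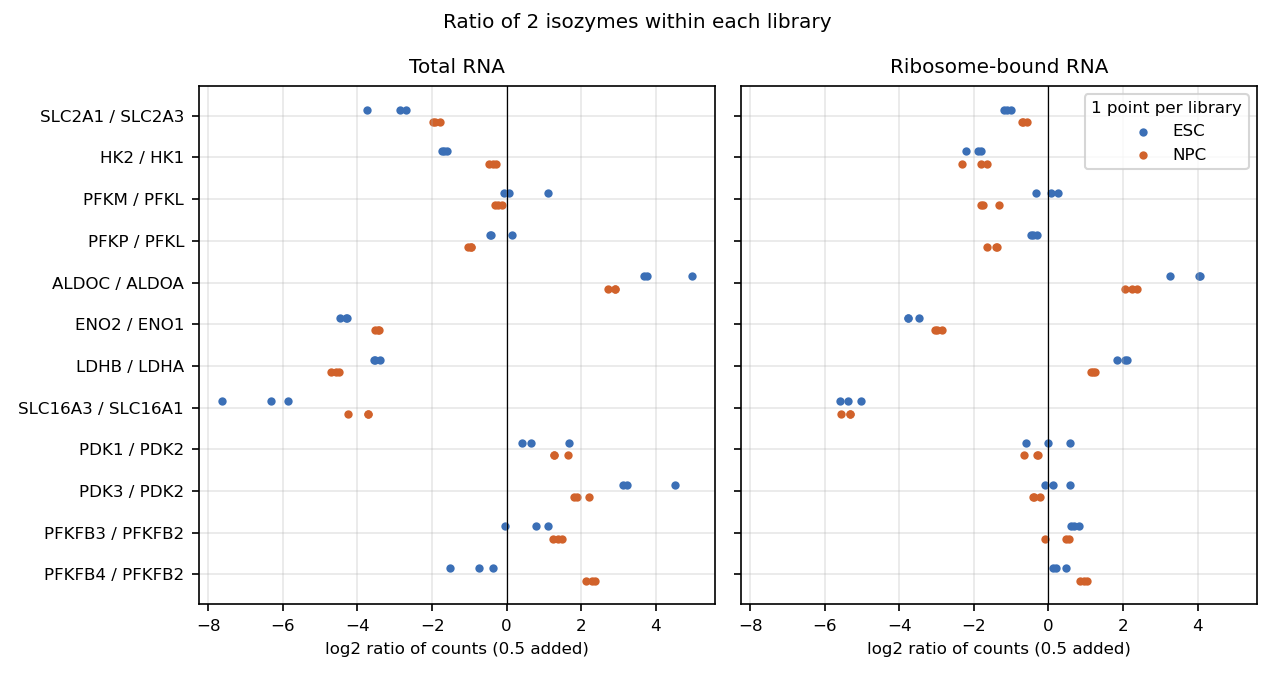
Log2 ratio of counts of isozyme pairs within each library, for RNA and ribosome-bound RNA; each point is a library, ESC in blue and NPC in orange. SLC16A3 over SLC16A1 separates the states in RNA (difference 2.698) and overlaps on ribosomes (-0.066), while LDHB over LDHA is lower in NPC in both assays.

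Other genes of the same routes were counted from lists of known members. The shares of all genes that rose and fell, against which each count below is to be read, were 26.4% and 26.2% in RNA, 31.6% and 30.3% on ribosomes and 22.6% and 19.7% in efficiency. Among 14 further glucose carriers and glycolytic isozymes tested in RNA, 3 rose and 7 fell (median log2 -0.28 beside 0.03 for all genes), and on ribosomes 2 of 12 rose and 7 fell (median -0.80 beside -0.01). FBP1, the enzyme that reverses the phosphofructokinase step, fell from 23.5 ± 2.74 to 1.74 ± 0.436 CPM (log2 -3.75 ± 0.22, adjusted p = 5.73e-06) in RNA and from 12.7 ± 2.51 to 1.39 ± 0.843 CPM (log2 -3.18 ± 0.43, adjusted p = 6.79e-05) on ribosomes. GALM, which turns one form of galactose into another, fell in RNA from 22.8 ± 0.753 to 12.5 ± 0.701 CPM (log2 -0.87 ± 0.12, adjusted p = 5.44e-04). ENO3, the muscle enolase, rose from 11.6 ± 2.20 to 33.2 ± 0.822 CPM (log2 1.51 ± 0.16, adjusted p = 1.40e-04) in RNA and from 9.24 ± 2.81 to 35.3 ± 3.99 CPM (log2 1.90 ± 0.26, adjusted p = 6.67e-05) on ribosomes. The glucose carrier SLC2A12 rose from 4.90 ± 1.13 to 19.9 ± 1.42 CPM (log2 2.03 ± 0.19, adjusted p = 6.88e-05) in RNA and from 6.55 ± 4.81 to 16.9 ± 3.65 CPM (log2 1.45 ± 0.42, adjusted p = 0.00982) on ribosomes. LDHD, a dehydrogenase of D-lactate, fell on ribosomes from 6.24 ± 2.87 to 0.946 ± 0.571 CPM (log2 -2.76 ± 0.56, adjusted p = 0.00110).

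For pyruvate and lactate transport, 1 of 6 genes rose and 4 fell in RNA (median -0.53), and 3 of 4 fell on ribosomes (median -1.70). MPC1, a subunit of the mitochondrial pyruvate carrier, fell from 8.46 ± 1.02 to 1.84 ± 0.429 CPM (log2 -2.19 ± 0.21, adjusted p = 7.43e-05) in RNA and from 10.98 ± 6.22 to 1.39 ± 0.424 CPM (log2 -2.94 ± 0.51, adjusted p = 3.95e-04) on ribosomes. Its partner MPC2 fell on ribosomes from 7.87 ± 2.88 to 2.10 ± 0.246 CPM (log2 -1.87 ± 0.41, adjusted p = 0.00200). EMB, the chaperone of a monocarboxylate carrier, fell in RNA from 36.4 ± 11.1 to 23.5 ± 0.511 CPM (log2 -0.63 ± 0.20, adjusted p = 0.0299). Of 7 further genes of the pyruvate dehydrogenase complex, 1 rose and 3 fell in RNA (median -0.31), 1 rose and 5 fell on ribosomes (median -0.92), and 4 fell in efficiency (median -0.77). DLAT, its E2 subunit, fell from 99.9 ± 10.7 to 57.1 ± 2.11 CPM (log2 -0.81 ± 0.11, adjusted p = 5.44e-04) in RNA and from 159 ± 29.6 to 27.1 ± 7.39 CPM (log2 -2.56 ± 0.25, adjusted p = 6.20e-06) on ribosomes. The phosphatases that switch the complex on moved apart, PDP1 rising from 32.5 ± 4.95 to 121 ± 5.23 CPM (log2 1.89 ± 0.13, adjusted p = 1.40e-05) and PDP2 falling from 72.2 ± 7.96 to 41.0 ± 2.79 CPM (log2 -0.82 ± 0.12, adjusted p = 8.08e-04) in RNA. On ribosomes PDP1 rose from 20.7 ± 3.78 to 57.7 ± 4.69 CPM (log2 1.47 ± 0.21, adjusted p = 9.20e-05), and PDPR, the regulatory subunit of these phosphatases, fell from 54.5 ± 4.38 to 21.3 ± 2.05 CPM (log2 -1.35 ± 0.20, adjusted p = 1.04e-04).

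Of 10 further pentose phosphate enzymes, 4 rose and 3 fell in RNA (median 0.06), against 26.4% and 26.2% of all genes. On ribosomes 1 of 7 rose and 3 fell (median -0.13), against 31.6% and 30.3%. H6PD, the dehydrogenase of the endoplasmic reticulum, rose from 29.9 ± 6.06 to 100.3 ± 6.01 CPM (log2 1.75 ± 0.16, adjusted p = 6.81e-05) in RNA and from 4.18 ± 0.505 to 21.0 ± 1.63 CPM (log2 2.34 ± 0.27, adjusted p = 1.95e-05) on ribosomes. RPIA, the ribose phosphate isomerase, fell from 22.2 ± 2.50 to 12.2 ± 0.825 CPM (log2 -0.86 ± 0.14, adjusted p = 0.00130) in RNA and from 26.9 ± 4.34 to 12.5 ± 4.38 CPM (log2 -1.07 ± 0.28, adjusted p = 0.00553) on ribosomes. The ribokinase RBKS rose in RNA from 1.86 ± 0.299 to 5.29 ± 1.03 CPM (log2 1.498 ± 0.22, adjusted p = 7.10e-04). Of the synthetases that activate ribose for nucleotides, PRPS2 fell in RNA from 37.9 ± 2.29 to 21.1 ± 0.560 CPM (log2 -0.85 ± 0.11, adjusted p = 4.52e-04) and PRPS1 fell on ribosomes from 62.7 ± 3.38 to 17.2 ± 1.61 CPM (log2 -1.86 ± 0.20, adjusted p = 1.02e-05).

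A list of HIF targets outside glycolysis and genes of the HIF pathway was counted in the same way. Of 31 such genes tested, 22 rose and 4 fell in RNA, against 26.4% and 26.2% of all genes (median log2 0.90 beside 0.03). On ribosomes 12 of 28 rose and 4 fell, against 31.6% and 30.3% (median 0.29 beside -0.01), and efficiency rose for 5 and fell for 10, against 22.6% and 19.7% (median -0.30 beside -0.07). P4HA1, a subunit of the collagen prolyl hydroxylase, rose in RNA from 37.9 ± 12.6 to 244 ± 21.6 CPM (log2 2.69 ± 0.22, adjusted p = 3.79e-05). PPFIA4, a liprin, rose from 5.27 ± 0.634 to 47.3 ± 0.546 CPM (log2 3.16 ± 0.14, adjusted p = 1.47e-06) in RNA and from 6.42 ± 0.776 to 81.9 ± 7.95 CPM (log2 3.67 ± 0.23, adjusted p = 3.44e-07) on ribosomes. ANGPTL4, a secreted inhibitor of lipoprotein lipase, rose on ribosomes from 4.93 ± 2.05 to 58.2 ± 7.46 CPM (log2 3.59 ± 0.29, adjusted p = 1.70e-06). EPAS1, which encodes HIF-2 alpha, fell from 16.2 ± 2.30 to 1.41 ± 0.0677 CPM (log2 -3.51 ± 0.18, adjusted p = 2.66e-06) in RNA and from 6.10 ± 1.183 to 2.87 ± 1.11 CPM (log2 -1.07 ± 0.40, adjusted p = 0.0372) on ribosomes. HIF1A, which encodes HIF-1 alpha and is named here after its values were seen, was not called in RNA, at 145, 153 and 211 CPM in ESC and 128, 132 and 146 CPM in NPC (log2 -0.33, adjusted p = 0.106), or on ribosomes (log2 -0.061, adjusted p = 0.815). HIF1AN, the hydroxylase that inhibits HIF, was chosen likewise, was not called in RNA (log2 -0.19, adjusted p = 0.105) and fell on ribosomes (log2 -0.90, adjusted p = 0.00684). Other genes of the list, also named after their values were seen, went different ways on ribosomes. VHL was at 22.2, 34.5 and 15.3 CPM in ESC and 84.3, 62.5 and 74.7 CPM in NPC. EGLN1 was at 9.05, 5.17 and 8.31 CPM in ESC and 31.1, 30.4 and 27.4 CPM in NPC. EGLN3 was at 34.95, 33.2 and 35.6 CPM in ESC and 24.4, 31.2 and 21.7 CPM in NPC, and EGLN2 at most at 0.962 CPM. BHLHE40, a repressor with a basic helix-loop-helix domain, fell in RNA from 10.99 ± 1.52 to 2.86 ± 0.180 CPM (log2 -1.95 ± 0.17, adjusted p = 4.10e-05), and CA12, a membrane carbonic anhydrase, fell on ribosomes from 6.89 ± 2.93 to 1.22 ± 0.324 CPM (log2 -2.40 ± 0.49, adjusted p = 0.00112). Oxygen during culture is not stated in the sources used here, and the part of HIF in the changes above was not tested.

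**Figure D5:**
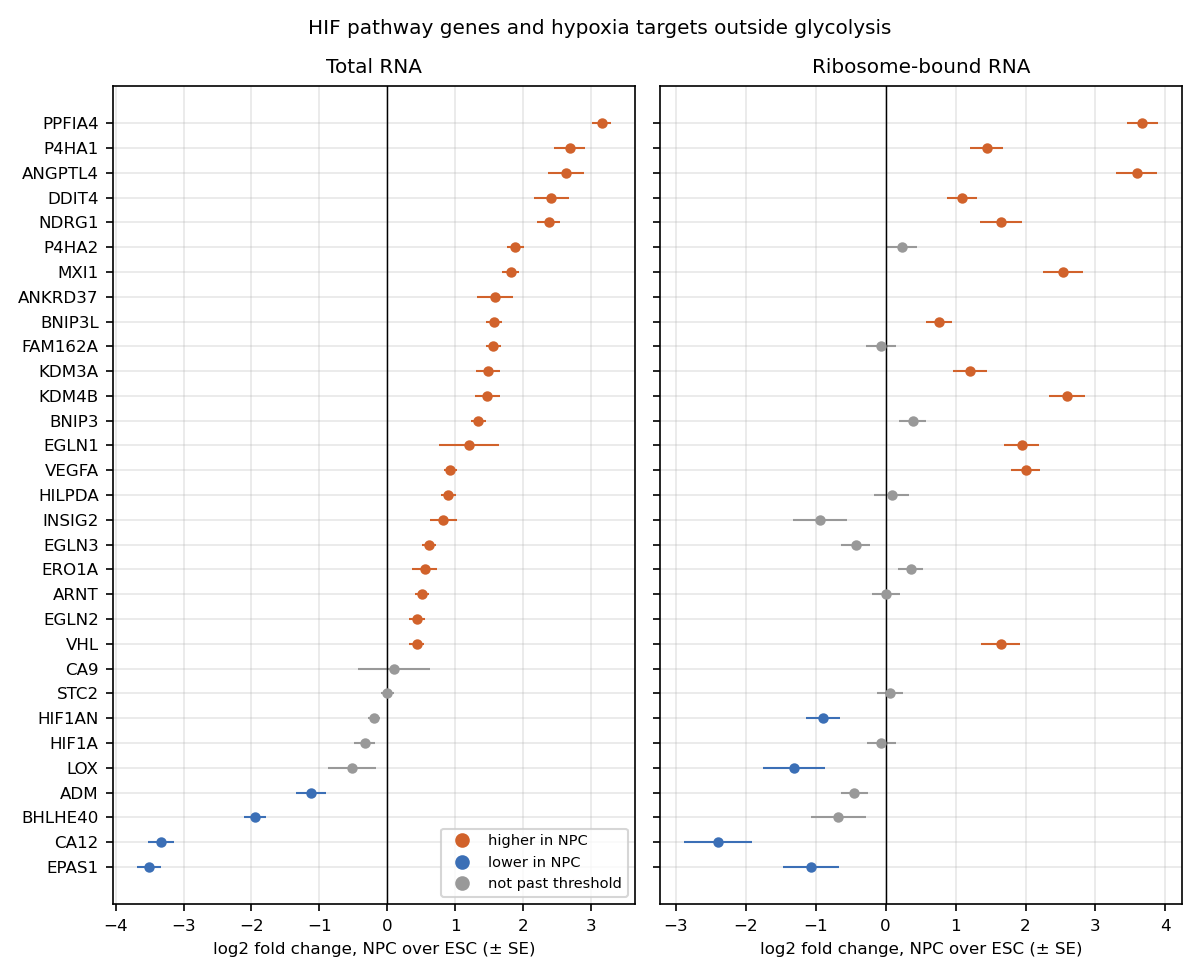
Change of NPC over ESC, as log2 with standard errors, for the genes of the HIF pathway and its targets outside glycolysis, in RNA and in ribosome-bound RNA; orange points rose, blue points fell, grey points did not pass the test, and no point is drawn where the gene was not tested. In RNA 22 of 31 genes rose, and on ribosomes 12 of 28.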

How the data were processed

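Total RNA and ribosome-bound RNA of ESC and NPC were measured in 12 libraries. The values were whole-number counts per gene symbol, deposited by the authors in a single table with no normalization, and each column name matched 1 sample title. Per the submitters' processing notes, cutadapt 1.18, Bowtie 1.2, STAR 2.7.1a and featureCounts 1.6.4 were used with builds hg38 and GRCh38; what each did, the annotation, the strand setting and how multi-matching reads were counted are not stated in the sources used here. The counts of genes with copies or overlapping neighbours are therefore uncertain (14 of the 32 genes have rows named as pseudogenes, and 8 overlap another coding gene of RefSeq). Those 8 are PFKM, PFKFB2, PFKFB4, ALDOA, TPI1, SLC16A3, PDK2 and PDHA1. PFKFB3, ENO2, SLC16A1, PDK1, PDK2 and PDHB overlap a long noncoding RNA.

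Tests used edgeR 4.0.16 in R 4.3.3 on the counts: TMM scaling, filterByExpr, the quasi-likelihood test and Benjamini-Hochberg adjustment over all genes tested, with a threshold of 0.05. Each assay had its own fit of 6 libraries, and efficiency was the interaction of assay and state over all 12 libraries. A standard error is the size of the log2 change divided by the square root of F. Ribosome-bound to RNA ratios are log2 of CPM with 0.5 added, between libraries of the same number. Isozyme ratios are log2 ratios of counts with 0.5 added, with an exact 2-sided permutation test. DESeq2 1.42.0, other scaling, no filter and leaving out each library were the alternatives. The tests were checked on simulated counts. Figures were made with matplotlib 3.10.9.

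Same-numbered RNA ESC and RNA NPC libraries deviated together (r = 0.369, 0.250 and 0.584 for numbers 1, 2 and 3), though RNA ESC library 2 matched RNA NPC library 1 best. The main fits used no pairing, so the RNA values and counts of calls above are unpaired unless a block is named. A fit with the replicate number as a block is given for single genes where it changed a call. Library pairs of a group differed by more than sampling noise (chi-square per gene 4.14 to 95.5). The named genes were those with a call in at least 2 of the 3 fits, with GAPDH, PKM, LDHA and HK2 added, and, from each list, the 2 largest rises and 2 largest falls per assay with at least 5 CPM in the higher state. The genes and lists were chosen with earlier results of these data known. Isozyme levels per length were not computed, and protein sequences were not used here.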

Additional observations from a re-analysis of the deposited data

How the results depend on the processing

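No called change among the 32 genes reversed under any alternative run. In RNA, 17 to 25 genes were called when each library was left out in turn, and 21 with DESeq2, 21 with its size factors, 22 with no filter and 20 with scaling to protein-coding genes, beside 20. Of all genes, 19.9% to 34.9% rose and 21.0% to 34.7% fell in RNA with a library left out. With DESeq2, 25.2% of all genes rose and 27.4% fell, and with its size factors 25.1% and 27.0%. With no filter these shares were 15.7% and 15.7%, and with protein-coding scaling 28.4% and 24.5%. In ribosome-bound RNA, leaving out each library gave 13 to 25 calls, 4 to 9 rises and 8 to 16 falls, and the other settings in the same order gave 20, 20, 18 and 19, beside 21. The all-gene shares on ribosomes were 27.95% to 34.8% for rises and 24.8% to 33.3% for falls with a library left out. With DESeq2 these shares were 30.5% and 30.4%, and with its size factors 31.03% and 31.08%. With no filter they were 16.1% and 15.7%, and with protein-coding scaling 32.01% and 29.7%. In efficiency, leaving out each library gave 12 to 23 calls, 3 to 5 rises and 9 to 19 falls, and the other settings gave 21, 18, 14 and 16, beside 16. The all-gene shares in efficiency were 19.5% to 25.8% for rises and 14.9% to 23.9% for falls with a library left out. With DESeq2 these shares were 23.5% and 24.1%, and with its size factors 21.7% and 21.3%. With no filter they were 13.04% and 9.01%, and with protein-coding scaling 23.1% and 18.6%. Leaving out RNA ESC library 3 and ribosome-bound ESC library 2 together, chosen after seeing the data, gave 28 efficiency calls, 5 rises and 23 falls. Of all genes, 29.5% rose and 29.3% fell in efficiency in that fit, so calls grew over all genes too.

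With the replicate block, 23 genes were called in RNA (15 rises and 8 falls), 15 in ribosome-bound RNA (6 rises and 9 falls) and 16 in efficiency (4 rises and 12 falls). In that fit 27.4% of all genes rose and 26.7% fell in RNA. These shares were 29.2% and 26.05% in ribosome-bound RNA, and 21.7% and 18.8% in efficiency. Same-numbered ribosome-bound libraries did not deviate together (r = -0.160, -0.253 and -0.00744). With 3 libraries a group these values cannot settle whether the numbers mark pairs, and the labels do not say. In the ribosome-bound libraries 3 counts are 0.674 to 1.24 CPM, and low rows such as ALDOA, PGAM1 and PDK1 rest on few counts. The isozyme ratios cannot pass 0.05 with 3 libraries a group.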

Other observations

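The branches that lead from glucose phosphates to glycogen, hexosamines and glycerol were counted from a list of 18 known genes. In RNA 1 of 17 tested genes rose and 8 fell (median log2 -0.36 beside 0.03 for all genes), against 26.4% and 26.2% of all genes, and on ribosomes 1 of 16 rose and 7 fell (median -0.37 beside -0.01), against 31.6% and 30.3%. Efficiency rose for 1 and fell for 4 (median -0.40), against 22.6% and 19.7%. UGP2, which makes UDP-glucose, fell from 357 ± 104 to 73.4 ± 7.14 CPM (log2 -2.28 ± 0.20, adjusted p = 5.22e-05) in RNA and from 1003 ± 430.5 to 111 ± 6.90 CPM (log2 -3.17 ± 0.34, adjusted p = 1.12e-05) on ribosomes. GBE1, the glycogen branching enzyme, was the gene of the list that rose in both assays, from 9.60 ± 1.71 to 97.2 ± 1.77 CPM (log2 3.34 ± 0.15, adjusted p = 1.63e-06) in RNA and from 20.1 ± 7.00 to 119.5 ± 8.69 CPM (log2 2.57 ± 0.25, adjusted p = 6.03e-06) on ribosomes. Its efficiency fell (log2 -0.83, adjusted p = 0.0341). GFPT2, an entry enzyme of the hexosamine branch named after its values were seen, was the gene whose efficiency rose (log2 0.72, adjusted p = 0.0261). GYG1, the glycogenin that primes glycogen, fell on ribosomes from 10.05 ± 5.12 to 1.13 ± 0.425 CPM (log2 -3.09 ± 0.50, adjusted p = 2.50e-04). GPD1L, a relative of the cytosolic glycerol phosphate dehydrogenase, fell in RNA from 6.27 ± 1.68 to 1.45 ± 0.172 CPM (log2 -2.10 ± 0.24, adjusted p = 1.94e-04). These values are from edgeR's quasi-likelihood test with Benjamini-Hochberg adjustment (n = 3 libraries per group).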
